A study of Mus musculus with 2 samples.

Results

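Shared STAT3 and STAT5 sites at which the reads of one antibody lay beside those of the other were examined in mouse T helper 17 (Th17) cells, and are called offset sites here. Candidate sites were 400 bp tiles of chromosomes 1 to 19 with at least 80 and fewer than 250 reads of each antibody and more reads than either neighbouring tile. At each candidate the reads within 200 bp of the pooled median were recounted, and the median position of the STAT3 reads was set beside that of the STAT5 reads. The medians lay 40 bp or more apart at 1039 of 6878 candidates (15.1%, exact 95% interval 14.3 to 16.0%), which are the offset sites. They lay under 15 bp apart at 3464 candidates (50.4%), called aligned sites, and 15 to under 40 bp apart at the other 2375.

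STAT3 and STAT5 are transcription factors that a cytokine receptor's kinases phosphorylate, after which they act as pairs in the nucleus. IL-6 signals mainly through STAT3, which drives the Th17 programme, whereas IL-2 signals mainly through STAT5A and STAT5B, which restrain it. Both factors recognise similar short palindromic DNA elements (GAS elements), so a single element can receive either. The position of a summit, the place where chromatin immunoprecipitation (ChIP) reads pile up, tells where along the DNA the recovered fragments were centred.

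The series holds 1 ChIP sequencing library per antibody. Sorted naive CD4 T cells of wild type C57BL/6J mice, from spleen and lymph nodes, were cultured for 3 days with antibodies to CD3 and CD28, 20 ng/ml IL-6, 2 ng/ml TGF-beta and an antibody to IL-4. The labels also list anti-IL-2, with its amount in IU/ml, as would be given for the cytokine. Cells given 40 ng/ml IL-6 for 30 minutes were used with an antibody to STAT3, and cells given 200 IU/ml IL-2 for 30 minutes with antibodies to STAT5A and to STAT5B, mixed. Antibody and cytokine therefore differ together and cannot be told apart. All cells were differentiated in culture, and the number of mice behind each library is unknown here. Reads along the genome hold no marker gene levels, so the Th17 label could not be checked against expression. No input or second library of either antibody was analysed here. Intervals of read medians and of ratios cover counting error of reads only. Those of shares treat sites as independent and leave out the error of each site's median or ratio. No interval covers variation between experiments, and no p-value was computed between the libraries or between sets of sites. The libraries held 20784388 STAT3 and 17963766 STAT5 reads on nuclear chromosomes, and positions are on mm9, counted from 1.

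The median offset was 14.5 bp over all candidates, 6.5 bp at aligned sites and 56.5 bp at offset sites. Among offset sites the quartiles were 46 and 76.0 bp and the largest value was 265.5 bp. An offset of 40 to under 60 bp was seen at 593 of them, 60 to under 100 bp at 337 and 100 bp or more at 109. STAT5 lay at the higher coordinate at 541 offset sites (52.1%, 49.0 to 55.1%). Higher and lower coordinate have no biological orientation here. These offsets chose the sites and are given as a description.

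**Figure D1:**
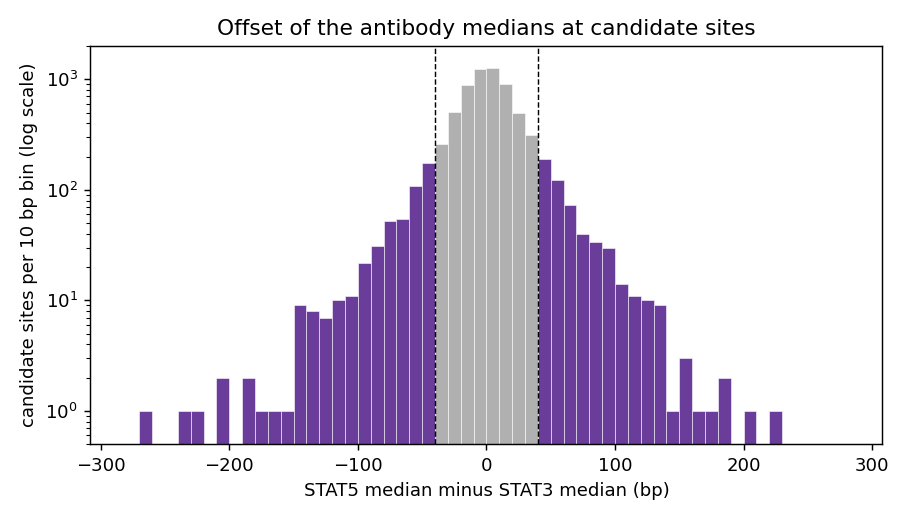
Number of candidate sites (log axis) per 10 bp of STAT5 median minus STAT3 median, with offset sites in purple, all others in grey and dashed lines at 40 bp on either side. The counts fall off on both sides with no gap at the limit, and 541 of the 1039 offset sites lie on the right.

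Counting error sets how sharply a median is known with about 130 reads. Each median was given a 95% interval from the order of the reads, and the STAT3 and STAT5 intervals did not overlap at 753 of 1039 offset sites (72.5%, 69.6 to 75.2%). Over all candidates this was 14.1%. The choice of sites by their offset fixes the share at offset sites in part. At the 286 other offset sites the intervals overlapped, so this measure did not separate the medians. No interval of their difference was computed, and overlap alone does not show that the medians are equal. Intervals were apart at 64.1% of sites offset by 40 to under 60 bp and at 93.6% of those offset by 100 bp or more. They were apart at 61.5% of offset sites whose lower read count was under 100, and at 89.0% of those where it was 150 or more.

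Exactly 26 offset sites lay at 40 bp and 15 candidates just outside the limit at 39.5 bp. The 5 offset sites first in genome order at 40 bp included chromosome 1 from 89110268 to 89110668 (STAT3 192 reads, STAT5 108), and chromosome 2 from 139926781 to 139927181 (141 and 191). The 5 candidates first in genome order at 39.5 bp included chromosome 1 from 20777091 to 20777491 (STAT3 282 reads, STAT5 318), and chromosome 4 from 129250713 to 129251112 (144 and 102). Intervals were apart at 2 of the 5 sites on either side of the limit.

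The reads of each strand gave separate estimates of the offset. At offset sites the plus-strand reads alone gave a median offset of 57.5 bp in the pooled direction (quartiles 44.5 and 79 bp), and the minus-strand reads alone 56.5 bp (44.0 and 78.5 bp). Both strands were shifted in the pooled direction at 1035 of 1039 offset sites, against 71.1% of all candidates. Since the pooled reads chose these sites, sites were also chosen on a single strand, a comparison added after the data were seen. Plus-strand medians were 40 bp or more apart at 1190 candidates. There the minus-strand reads were offset by a median of 47.0 bp in the same direction (27 and 72 bp). Minus-strand reads had no part in this 40 bp cut, but reads of both strands chose the candidates and placed the windows. The minus strand pointed the same way at 1114 of these 1190 candidates (93.6%, 92.1 to 94.9%) and reached 40 bp at 716 (60.2%, 57.3 to 63.0%). Choosing on the minus strand gave 1192 candidates, with a plus-strand offset of 46.5 bp, the same direction at 94.3% and 40 bp or more at 60.1%. Where the plus-strand medians were under 15 bp apart, the minus-strand medians were 40 bp or more apart at 144 of 3194 candidates (4.51%, 3.82 to 5.29%). The minus strand pointed the same way as the plus strand at 1842 of these (57.7%, 55.9 to 59.4%). The strands share their library, site and preparation, so they bear on counting error and not on variation between experiments.

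The 4 offset sites whose strands went different ways are named because they are so few. They lay on chromosome 2 from 25277995 to 25278395, chromosome 2 from 124858849 to 124859248, chromosome 9 from 44204825 to 44205225 and chromosome 13 from 23666000 to 23666400. At each of the 4 the intervals of the medians overlapped and the reads of a library formed 2 summits.

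The highest points of the antibodies lay farther apart than their medians. In profiles smoothed with a Gaussian of 20 bp, the highest STAT3 and STAT5 points were a median of 105 bp apart at offset sites (quartiles 56.5 and 167 bp), and 13 bp apart at aligned sites (6.00 and 28 bp). They were 40 bp or more apart at 864 offset sites (83.2%, 80.7 to 85.4%), against 33.8% of all candidates. They came in the order of the medians at 977 offset sites (94.0%), against 74.7% of all candidates, which follows largely from choosing sites whose medians lay apart. At 126 offset sites (12.1%) the highest points lay within 25 bp of each other, and the medians differed through the rest of the profile. Among these 126 sites 62.7% had more than 1 summit in a library, a form described next.

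**Figure D2:**
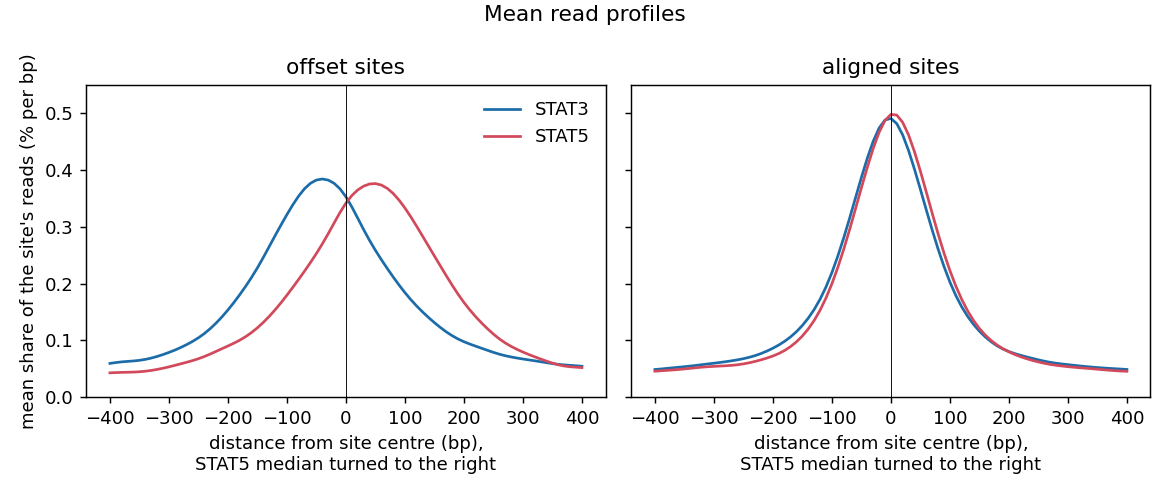
Mean share of a site's STAT3 (blue) and STAT5 (red) reads per bp against the distance from the site centre, for the 1039 offset sites (left) and the 3464 aligned sites (right), each site turned so that the STAT5 median lies to the right. At offset sites the STAT3 profile is highest at -40 bp and the STAT5 profile at 50 bp, while at aligned sites both are highest at 0 bp; the separation follows from how sites were chosen and turned.

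Mean profiles of the offset sites were lower and broader than those of aligned sites. At their highest point the STAT3 profile of offset sites held 0.384% and the STAT5 profile 0.376% of the site's reads per bp, against 0.491% and 0.498% at aligned sites. At 100 bp on the STAT5 side, offset sites held 0.333% of STAT5 and 0.184% of STAT3 reads per bp. At 100 bp on the STAT3 side the order was turned round, with 0.180% of STAT5 and 0.322% of STAT3 reads. Neither profile fell to its surroundings at the other's highest point.

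Heights were also taken site by site, without a comparison with the surroundings. At the highest STAT5 point of an offset site, the STAT3 profile stood at a median of 60.7% of its own highest value, and at the highest STAT3 point the STAT5 profile stood at 63.0% of its own. At aligned sites these were 97.0% and 97.1%. STAT3 was below 50% of its height under the STAT5 summit at 380 offset sites (36.6%, 33.6 to 39.6%), and STAT5 was so under the STAT3 summit at 304 (29.3%, 26.5 to 32.1%). Over all candidates these shares were 7.02% and 6.35%. Both held at 134 offset sites (12.9%, 10.9 to 15.1%), against 2.06% of all candidates and 4 of 3464 aligned sites. Heights at the other antibody's summit come from the reads that chose the sites.

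Reads were spread more widely at offset sites with either antibody. The interquartile range of read positions had a median of 130.5 bp for STAT3 (quartiles 104 and 161 bp) and 132 bp for STAT5 (109 and 164 bp). At aligned sites it was 104 bp for STAT3 (87.5 and 127 bp) and 101.5 bp for STAT5 (87.0 and 122 bp). The median of a wide site is known less exactly, and how far counting error sets offsets there was not tested. The STAT3 spread was 125 bp at sites offset by 40 to under 60 bp and 149 bp at those offset by 100 bp or more, and the STAT5 spread 127 and 161.5 bp.

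Offset sites often held more than 1 summit within 400 bp. A further summit was counted when it reached 50% of the highest and the profile dipped by at least 20% between them. At least 1 library had more than 1 summit at 464 offset sites (44.7%, 41.6 to 47.7%), against 25.6% of all candidates and 17.2% (16.0 to 18.5%) of aligned sites. STAT3 had several summits at 289 offset sites, STAT5 at 275 and both at 100. Exactly 2 summits in each library were found at 80 offset sites, 333 of all 6878 candidates and 124 of 3464 aligned sites. Each library had exactly 1 summit at 561 offset sites, 5102 of all candidates and 2866 of the aligned sites. The shares depend on the smoothing, but offset sites had the higher share under each setting run: with 30 bp it was 24.8% against 6.41%, and with 15 bp 63.8% against 32.7%. At every setting the summits were counted in the reads that chose the sites. How far that choice raises the share at offset sites was not tested. Offset sites with overlapping intervals of the medians had several summits in a library at 213 of 286 (74.5%, 69.0 to 79.4%), and those with intervals apart at 251 of 753 (33.3%).

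Where no library had more than 1 summit (575 offset sites), the median offset was 54 bp, the spread 112.5 bp for STAT3 and 119.5 bp for STAT5, and the highest points were 92 bp apart. Where a library had several (464 sites), the offset was 59.2 bp, both spreads were 159 bp and the highest points were 142.5 bp apart. Intervals of the medians were apart at 87.3% of the former and 54.1% of the latter.

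When the scaled profiles of both antibodies were added, 295 offset sites (28.4%, 25.7 to 31.2%) showed 2 or more summits, against 11% of all candidates and 5.98% (5.21 to 6.82%) of aligned sites. The main pair of summits lay a median of 197 bp apart at these offset sites (quartiles 157.5 and 245.5 bp), and 168 bp apart at the 207 such aligned sites. All reads in the window were divided at the midpoint between these 2 summits. The STAT5 side held a median of 57.6% of the STAT5 reads (51.2 and 67.0%) but 37.9% of the STAT3 reads (25.3 and 46%). At the aligned sites with 2 summits it held 52.9% and 51.5%. At 185 of the 295 offset sites most STAT3 reads lay on one side of the midpoint and most STAT5 reads on the other. Choosing sites by their medians fixes the direction of this difference, and the count of 185 follows in part from that choice.

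By offset, pairs of summits in the summed profile were seen at 16.0% of sites offset by 40 to under 60 bp, 38.6% of those offset by 60 to under 100 bp and 64.2% (54.5 to 73.2%) of those offset by 100 bp or more. Moving the antibodies' medians apart itself divides their summed profile, so this order follows in part from the choice of sites. The share with several summits in a single library was 40.1%, 50.7% and 50.5% in the same order.

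**Figure D3:**
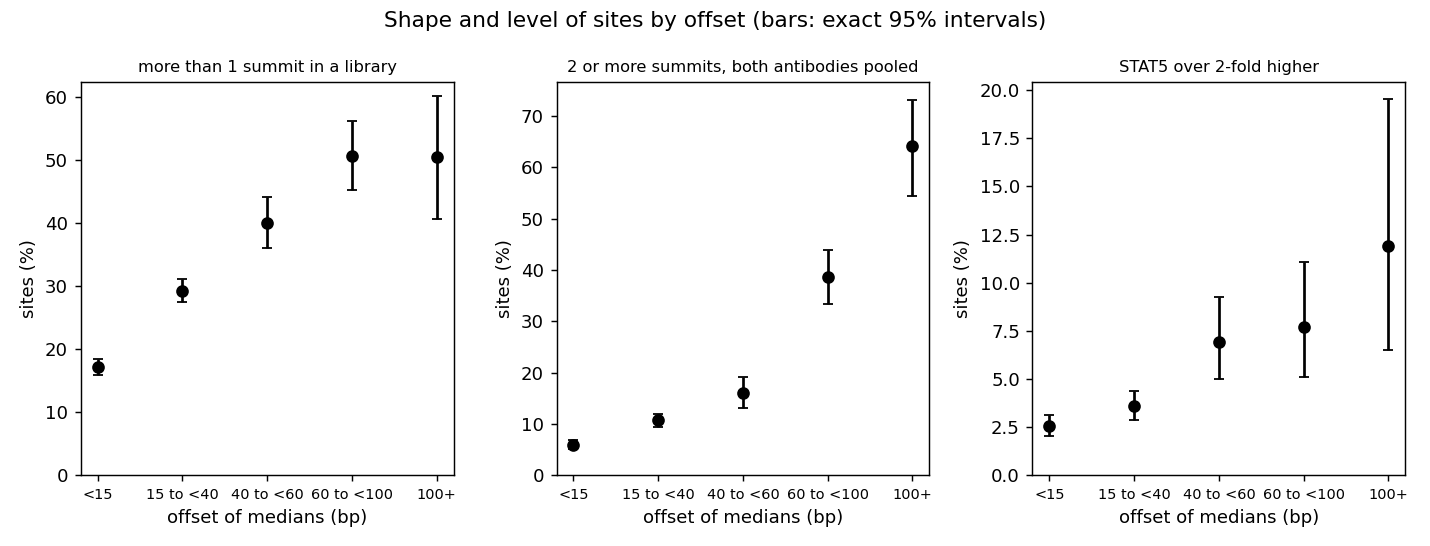
Percent of sites with more than 1 summit in a library (left), with 2 or more summits in the summed profile of both antibodies (middle) and with STAT5 called over 2-fold higher (right), by offset of the medians in bp; bars are exact 95% intervals. The middle share goes from 5.98% of aligned sites to 64.2% of sites offset by 100 bp or more, and the right one from 2.54% to 11.9%. The choice of sites bears on each of these shares, and the centring of the window on the middle and right ones.

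The 10 offset sites with the largest offsets and intervals apart had offsets of 185 to 265.5 bp. A further site tied with the last of them at 185 bp and comes later in genome order. The largest lay on chromosome 2 from 115435983 to 115436382, where STAT3 had 106 reads and STAT5 212. Along its successive segments of 100 bp, STAT3 had 24, 6, 16 and 60 reads and STAT5 had 140, 27, 11 and 34. STAT5 was thus highest at one end and STAT3 at the other, and a further 209 STAT3 and 143 STAT5 reads lay 200 to 600 bp from the centre on the STAT3 side. The second, on chromosome 17 from 33620802 to 33621201, had 6, 5, 12 and 104 STAT3 reads against 90, 82, 37 and 36 STAT5 reads. Here STAT3 was nearly empty under the STAT5 summit, at 2.02% of its height.

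A site on chromosome 2 from 32319895 to 32320295 was dominated by STAT5, with 367 reads against 35 STAT3 reads. Its STAT5 reads numbered 138, 173, 42 and 14 along the segments, and its STAT3 reads 1, 11, 1 and 22. The tile from which it was chosen had at least 80 STAT3 reads, and the recount window, centred on the pooled median, left most of them outside. On chromosome 1 from 173851200 to 173851600 both antibodies had 183 reads and were high at both ends, with 93, 22, 12 and 56 STAT3 reads and 53, 14, 17 and 99 STAT5 reads. Each end was thus occupied by both antibodies, in unequal shares.

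On chromosome 7 from 82831611 to 82832011 STAT3 had 78, 9, 14 and 21 reads and STAT5 had 20, 7, 44 and 47. On chromosome 16 from 50031147 to 50031547 STAT3 had 17, 12, 9 and 49 reads and STAT5 had 79, 59, 20 and 25. On chromosome 9 from 13468816 to 13469216 STAT3 had 54, 13, 12 and 2 reads and STAT5 had 32, 20, 77 and 40. STAT3 was nearly absent from the last segment of this site, whereas STAT5 kept reads in all 4 segments.

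The other 3 of the 10 lay on chromosome 11 from 107310746 to 107311146, chromosome 1 from 54896800 to 54897200 and chromosome 2 from 30916809 to 30917209, with offsets of 204, 189 and 186 bp. STAT5 outnumbered STAT3 at each, by a ratio of RPM of 2.30, 1.97 and 2.82. At 5 of the 10 sites a highest point lay within 10 bp of the window's end, so part of that summit is outside the window and its true position is not known from the recount. Over all offset sites this held at 81 (7.80%), against 3.00% of candidates and 1.53% of aligned sites. Without such sites 958 offset sites remained, and 43.4% of them had several summits in a library.

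At 12 offset sites the offset equalled the median of 56.5 bp, and the 5 first in genome order are described. On chromosome 4 from 83160480 to 83160880 STAT3 had 20, 60, 56 and 36 reads along the segments and STAT5 16, 32, 54 and 53, and the intervals of the medians overlapped. On chromosome 3 from 115433595 to 115433995 STAT3 had 18, 91, 47 and 30 reads in a single main summit, and STAT5 had 17, 34, 26 and 52 in 2 summits. The smoothed STAT3 profile also rose toward the upper end, from 0.196 reads per bp at 110 bp to 0.530 at 200 bp. A highest point lay within 10 bp of the window's end at this site. On chromosome 2 from 157193166 to 157193566 the antibodies shared a summit, with 56 STAT3 and 47 STAT5 reads in the second segment, and STAT5 alone had another, with 49 against 8 reads in the last segment. On chromosome 2 from 72313946 to 72314346 STAT3 had 23, 24, 35 and 15 reads and STAT5 24, 50, 21 and 11. On chromosome 1 from 97564032 to 97564431 STAT3 was broad, with 37, 62, 62 and 24 reads, and STAT5 had 13, 22, 34 and 27. These 5 sites thus differed in form, from an added STAT5 summit on chromosome 2 from 157193166 to a gradual tilt of the broad site on chromosome 1.

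**Figure D4:**
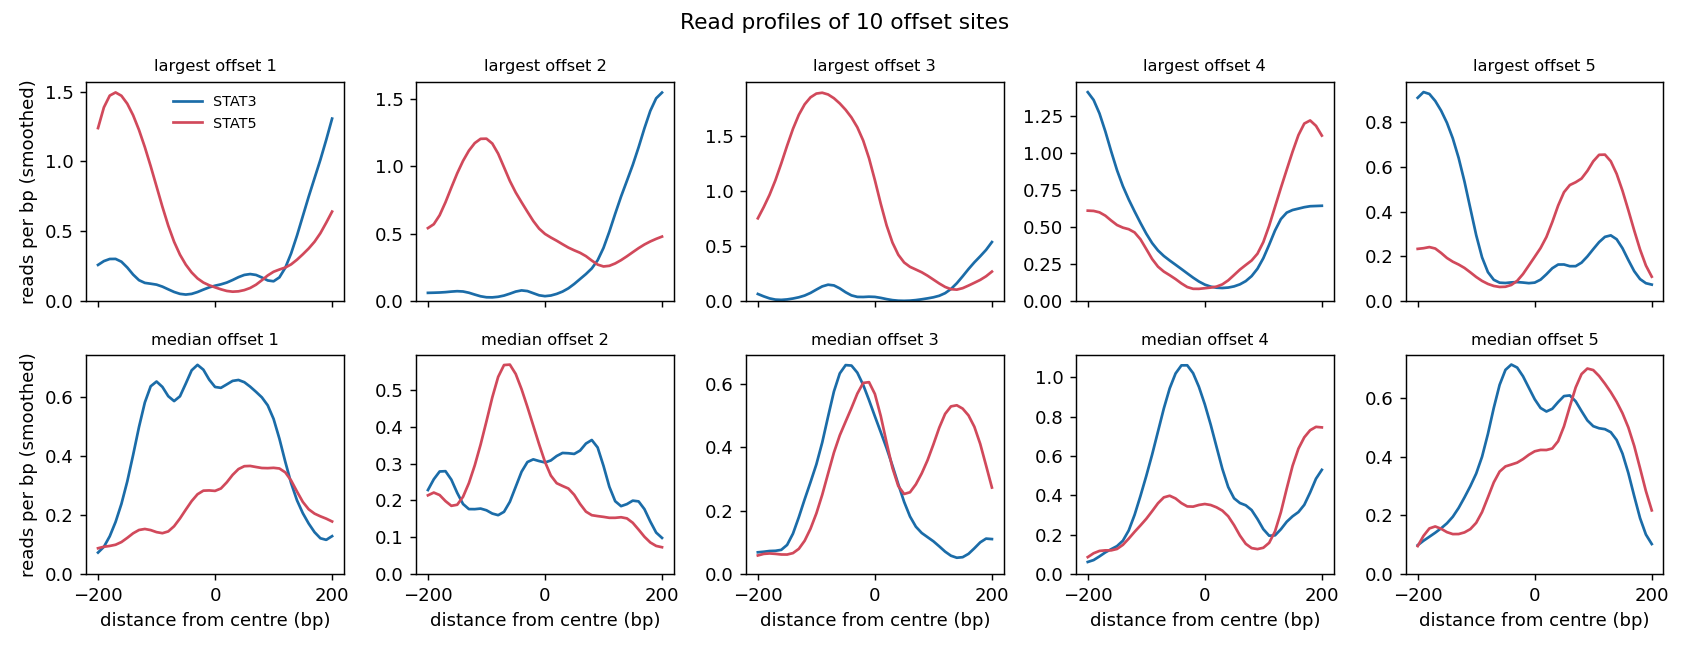
Smoothed reads per bp of STAT3 (blue) and STAT5 (red) against the distance from the centre in bp, for the 5 largest offsets (top row, in order) and 5 offset sites at the median offset (bottom row, the first in genome order). In the top row the antibodies are highest toward different ends of the window, and in the bottom row the profiles overlap over most of it; vertical scales differ between panels.

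The median STAT5 level was higher at offset than at aligned sites, and that of STAT3 slightly lower. Within 400 bp offset sites had a median of 130 STAT3 reads (quartiles 103 and 173) and 149 STAT5 reads (110 and 199), or 6.25 and 8.29 RPM (reads per 1000000 nuclear reads). Aligned sites had 135 STAT3 (108 and 176) and 130 STAT5 reads (104 and 175), or 6.50 and 7.24 RPM. The median ratio of STAT5 to STAT3 RPM was 1.27 at offset sites (0.924 and 1.79) and 1.12 at aligned sites (0.904 and 1.42), and the quartile ranges overlap. Both counts were bounded by the rule in the tile, which narrows these ratios. The recount window was centred on the pooled median, so it can leave out reads of the less numerous antibody where the antibodies lie apart. This can widen the ratios at offset sites, and by how much was not tested.

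A site was called higher with an antibody when the exact 95% interval of the ratio lay wholly beyond 2-fold. STAT5 was higher at 80 offset sites (7.70%, 6.15 to 9.49%), against 3.68% of all candidates and 2.54% (2.04 to 3.12%) of aligned sites. With the libraries scaled to a median ratio of 1 over candidates, STAT5 was higher at 44 offset sites (4.23%), against 1.76% of all candidates and 1.10% of aligned sites, and STAT3 at 7. With intervals beyond 1.5-fold STAT5 was higher at 20.6% of offset sites, against 11.9% of all candidates and 9.96% of aligned sites. The shares lay closer when offsets were taken from highest points. STAT5 was then higher at 4.43% of offset sites (3.63 to 5.34%), 3.68% of all candidates and 3.33% of aligned sites (2.66 to 4.10%). The median of the 80 sites called beyond 2-fold was 252.5 reads for STAT5 and 97.5 for STAT3. The centring of the window bears on the shares of called sites too, and its part in them was not tested. STAT3 was higher at 3 offset sites (0.289%), against 0.0727% of all candidates.

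Those 3 sites are named because they are so few. On chromosome 2 from 32612522 to 32612922 STAT3 had 15, 54, 150 and 96 reads along the segments and STAT5 16, 40, 28 and 13, an offset of 97.0 bp. On chromosome 3 from 129534102 to 129534501 there were 28, 24, 100 and 122 STAT3 reads against 16, 25, 30 and 21 STAT5 reads. On chromosome 5 from 149678085 to 149678485 there were 24, 68, 102 and 97 against 20, 31, 26 and 18. STAT3 had most reads in the third or last segment of each, and at the highest STAT3 point STAT5 stood at 43.6%, 74.0% and 46.4% of its own height in the order given.

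Because each position and strand holds at most 1 read, tall summits are flattened. The fullest 50 bp of an offset site had a median of 36 of 100 possible STAT3 reads and 40 STAT5 reads, against 40 for either antibody at aligned sites. The highest values at offset sites were 91.0 for STAT3 and 100 for STAT5, and the latter, a full stretch, was reached at 1 site.

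Reads beyond the window had no part in the recount. From 200 to 600 bp on the STAT5 side, offset sites had a median of 27 STAT5 reads (quartiles 14 and 50), against 19 (11 and 36) on the STAT3 side. STAT3 reads there numbered 26 (15 and 46.5) on the STAT3 side and 22 (13 and 39) on the STAT5 side. STAT5 reads were more numerous on the STAT5 side at 604 of 1039 offset sites (58.1%, 55.1 to 61.2%), and STAT3 reads on the STAT3 side at 570 (54.9%, 51.8 to 57.9%). At aligned sites these shares were 50.5% and 49.9%. A summit near the end of the window reaches into this range, and the tile that chose a site can extend into it.

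Farther away the sides differed less. From 1 to 5 kb, offset sites had a median of 17.8 STAT5 reads per kb on the STAT5 side and 15.5 on the STAT3 side, and 19.8 and 19.2 STAT3 reads. STAT5 reads were more numerous on the STAT5 side at 52.5% of offset sites (49.4 to 55.5%), and STAT3 reads on the STAT3 side at 50.7% (47.6 to 53.8%). Both sides together gave 24.8 STAT3 and 22.9 STAT5 reads per kb at offset sites and 26 and 23.2 at aligned sites. The quartile ranges of all these values overlap widely.

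**Figure D5:**
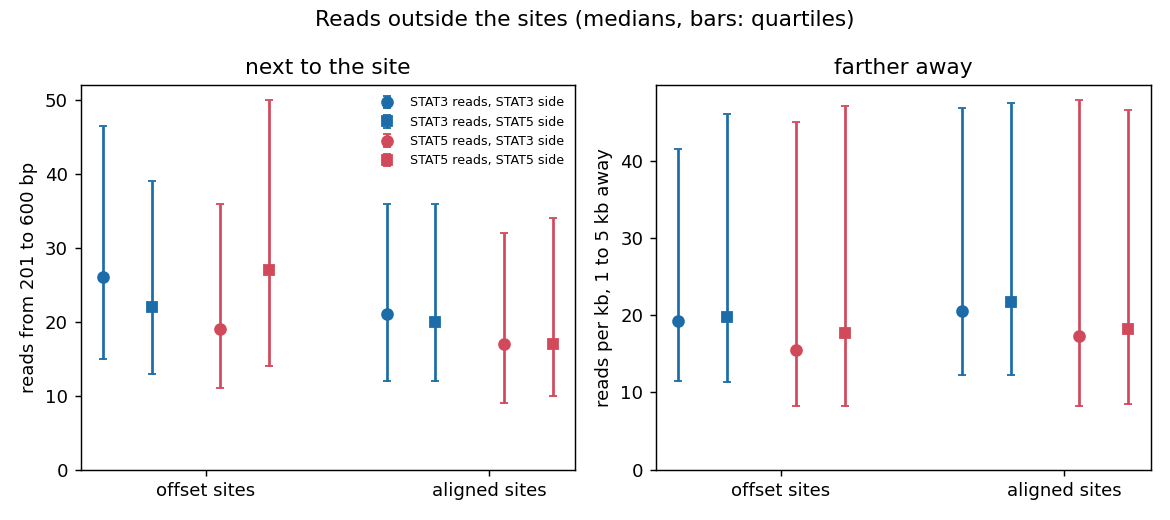
Median reads of STAT3 (blue) and STAT5 (red) from 200 to 600 bp of the site centre (left) and reads per kb from 1 to 5 kb (right), on the STAT3 side (circles) and the STAT5 side (squares) of offset and aligned sites; bars are quartiles over sites. Next to offset sites STAT5 has 27 reads on its own side and 19 on the other, while the quartile ranges overlap in every pair.

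Offset sites were found on every autosome. Their share of candidates ran from 12.2% on chromosome 8 (40 of 327, 8.88 to 16.3%) to 19.7% on chromosome 19 (43 of 218, 14.7 to 25.6%), and these intervals overlap. The nearest other candidate lay at a median distance of 22706.5 bp from an offset site and 24060 bp from an aligned site. Another candidate lay within 10 kb of 31.0% of offset sites (28.2 to 33.9%) and 32.4% of aligned sites (30.9 to 34.0%). No 2 windows overlapped. Of 28 neighbouring pairs of offset sites within 10 kb, 16 were shifted in the same direction.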

How the data were processed

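Each deposited file lists aligned reads, 1 per line, as chromosome, start, end, match descriptor, score and strand. The authors aligned to mm9, per the submitters' processing notes; the sources used here name neither aligner nor filters. Reads are 25 nt long, start and end are counted from 1, and no position and strand holds more than 1 read. The score deposited by the authors is 0 in every line and was not used.

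The 5′ ends were moved 50 bp in the 3′ direction and counted in tiles at multiples of 400 bp with Python 3.11.15 (numpy 2.4.6, pandas 2.3.3, scipy 1.17.1, matplotlib 3.10.9). Shares have exact (Clopper-Pearson) 95% intervals, and medians order-statistic intervals. Functions were tested on simulated sites. With 1 library per antibody no test between them was possible. Sites, measures and the rule for named sites were chosen with earlier results of these data known. The rule named the 10 largest offsets with intervals apart, the 5 sites nearest the limit on either side and the 5 nearest the median offset, with ties taken in genome order. Gene names, sequences and motifs need a genome of mm9, and the tables used here are on another build, so sites are given by position.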

Additional observations from a re-analysis of the deposited data

Results flagged for a closer look

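Chromosome X was outside the rule, which covers chromosomes 1 to 19. The same limits gave 58 candidate sites there, of which 7 (12.1%, exact 95% interval 4.99 to 23.3%) had medians 40 bp or more apart. They are listed because they are a signal outside the comparisons above, with no control library analysed here. The interval includes the share of 15.1% on the autosomes.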

How the results depend on the processing

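No paired analysis was possible because each antibody has 1 library, so no library could be left out either. Of 82 planned recalculations 41 stayed within the tolerance and 41 moved, and of 10 chosen after seeing the data 7 stayed and 3 moved. The cause of each move was not tested. At offset sites the STAT3 spread was below the STAT5 spread under the main settings (130.5 and 131.75 bp). This order turned with highest points and with STAT3 thinned to the STAT5 depth (134.25 and 134.0 bp). It was kept with the shift of 75 bp, the half-width of 150 bp and the limit of 50 bp. With count limits widened to 60 and under 300 there were 13623 candidates, 2182 offset sites (16.0%) and 6647 aligned sites. The offset count was 1612 (23.4%) at a limit of 30 bp, 676 (9.83%) at 50 bp, 631 (9.17%) from mean positions and 2326 (33.8%) from highest points. A half-width of 150 bp gave 10.7%, and the plus or the minus strand alone 17.3% each (added). Several summits in a library were found at 32.9% of offset and 14.2% of aligned sites (150 bp), 38.7% and 18.7% (highest points), 63.8% and 32.7% (smoothing of 15 bp), 24.8% and 6.41% (30 bp) and 30.6% and 10.7% (second summit at 70%); at offset sites alone the share was 48.8% (limit of 50 bp) and 33.3% (intervals apart only, added). STAT3 and STAT5 spreads were 110.5 and 111.5 bp (150 bp), 128 and 126 bp (highest points) and 135 and 140 bp (limit of 50 bp). Both strands went the same way at 98.4% (shift of 75 bp) and 78.9% (highest points). Intervals were apart at 68.1% (shift of 75 bp), 32.0% (highest points), 79.6% (limit of 50 bp) and 67.1% (STAT3 thinned to the STAT5 depth). STAT5 was higher at 4.43% of offset sites and 3.68% of candidates (highest points), 4.58% and 1.87% (thinned), 4.23% and 1.76% (median ratio set to 1) and 20.6% and 11.9% (1.5-fold), and STAT3 at 2.69% and 2.01% (1.5-fold). The sequence comparison that was planned was not run. The intervals of the medians overlapped at 286 offset sites, and no interval of the difference was computed.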
